A study of Mus musculus with 9 samples.

Results

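The 10 transcription factors described here are the core and naive pluripotency factors Pou5f1, Sox2, Nanog, Klf2, Klf4, Klf5, Esrrb, Tbx3, Tfcp2l1 and Prdm14. They were taken by gene symbol, and each of the 10 had exactly 1 transcript cluster (a set of probes summarised to 1 level) whose annotation gives that symbol alone. These 10 clusters stood among 23410 with an annotated gene, which were tested, and 35556 on the array in all. RNA of 9 mouse embryonic stem cell (mESC) lines at the eighth passage was hybridised to the Mouse Gene 1.0 ST arrays of Affymetrix, 1 array per line. The question was whether the way the embryo was conceived and cultured left a trace in these factors, and which of them differ from line to line whatever the group.

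WM1, WM2 and WM3, the mESCWM lines, were derived from blastocysts made by in vitro fertilization (IVF) and grown in Whitten's medium under 20% O2, the less favourable culture. KAA1, KAA2 and KAA3, the mESCKAA lines, were derived from IVF blastocysts grown in KSOM with amino acids under 5% O2. FB1, FB2 and FB3, the mESCFB lines, were derived from blastocysts flushed from the uterus after natural mating and served as control. All lines are labelled C57BL/6 and female. All were derived on CF-1 mouse embryonic fibroblast feeders with serum, leukemia inhibitory factor (LIF) and 2i, the paired inhibitors CHIR99021 and PD0325901, and were moved to gelatin before RNA was taken. Each line is the progeny of 1 blastocyst, so a group of 3 lines carries the spread between embryos as well as that of culture and array.

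Naive pluripotency is held by a network in which POU5F1 (OCT4) and SOX2 bind DNA together and maintain each other and NANOG. LIF acts through STAT3 on Klf4 and Tfcp2l1. CHIR99021 inhibits GSK3 and so lifts the repression by TCF7L1 of Esrrb and Tfcp2l1, and PD0325901 blocks MEK and so the FGF4 and ERK signal that pushes cells out of the naive state. Levels of NANOG, ESRRB, TBX3 and KLF4 are known to vary from cell to cell in serum, while POU5F1 is held within narrow limits.

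Regulatory sequence is shown for 4 factors on which the results turn: Pou5f1, the factor called steady over the 9 lines, Nanog, the most variable for its level, and Esrrb and Tfcp2l1, whose levels were correlated over the lines. Windows from 250 bases before to 50 bases after a start site were taken from RefSeq on GRCm38.p6, where 7 of the 10 factors had a window, and the first listed is printed 5′ to 3′ for each. Klf5, Tbx3 and Prdm14 had none. Capitals mark matches to the motif named for each window, searched on both strands: a GC box (GGGCGG) for Pou5f1 at chr17:35505782-35506081 on the plus strand, the composite SOX2 and OCT4 element for Nanog at chr6:122707239-122707538 on the plus strand, the STAT3 element (TTCNNNGAA) for Esrrb at chr12:86360867-86361166 on the plus strand and the TATA box (TATAAA) for Tfcp2l1 at chr1:118627695-118627994 on the plus strand.
Pou5f1: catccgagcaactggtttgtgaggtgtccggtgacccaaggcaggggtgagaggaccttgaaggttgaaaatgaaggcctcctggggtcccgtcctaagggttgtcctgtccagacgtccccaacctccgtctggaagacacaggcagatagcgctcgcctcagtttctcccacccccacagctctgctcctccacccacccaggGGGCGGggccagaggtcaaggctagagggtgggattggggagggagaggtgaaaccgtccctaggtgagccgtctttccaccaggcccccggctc
Nanog: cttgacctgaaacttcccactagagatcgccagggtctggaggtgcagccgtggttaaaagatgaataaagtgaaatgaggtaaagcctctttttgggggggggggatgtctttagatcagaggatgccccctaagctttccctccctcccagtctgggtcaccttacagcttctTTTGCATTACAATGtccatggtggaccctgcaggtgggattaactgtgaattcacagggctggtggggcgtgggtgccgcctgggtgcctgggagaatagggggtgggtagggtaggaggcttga
Esrrb: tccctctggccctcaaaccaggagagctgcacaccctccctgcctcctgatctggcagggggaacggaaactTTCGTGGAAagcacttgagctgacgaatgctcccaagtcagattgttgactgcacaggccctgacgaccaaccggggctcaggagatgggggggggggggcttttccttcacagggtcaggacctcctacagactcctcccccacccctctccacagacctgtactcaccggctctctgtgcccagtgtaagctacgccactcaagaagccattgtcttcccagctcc
Tfcp2l1: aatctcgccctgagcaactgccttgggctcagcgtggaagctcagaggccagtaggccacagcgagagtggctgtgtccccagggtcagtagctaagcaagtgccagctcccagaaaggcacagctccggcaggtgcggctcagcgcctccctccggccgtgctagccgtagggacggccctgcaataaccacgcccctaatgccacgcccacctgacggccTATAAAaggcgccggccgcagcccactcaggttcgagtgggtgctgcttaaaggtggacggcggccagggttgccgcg

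The composite element lay 75 to 62 bases before the Nanog start of the printed window, on the reverse strand. In the other Nanog window it lay 151 to 138 bases before the start. The exact pattern searched for it was present in 2 of 32851 windows of the genome (0.00609%), both of them windows of Nanog that overlap each other. That pattern is long and nearly all of its letters are fixed, so few windows can match it whatever the gene. Variants of the element that differ at a fixed letter were not searched. The count therefore does not show that such elements are particular to Nanog. All motifs were searched in all windows, and the motif named for a printed window is the only one that matched there. The STAT3 element lay 178 to 170 bases before the Esrrb start and is found in 8.3% of all windows. It had no match in the windows of Klf4 and Tfcp2l1, the factors named above as acted on by STAT3. The TATA box lay 28 to 23 bases before the Tfcp2l1 start (13.6% of windows), and the GC box 45 to 40 bases before that of Pou5f1 (35.7% of windows). The octamer ATGCAAAT (1.74% of windows), the ESRRB element TCAAGGTCA (0.423%) and the TCF element CTTTGAT (3.73%) had no match in the windows of the 7 factors. GC boxes were also found in the Sox2, Klf2 and Klf4 windows, with 2, 2 and 4 matches. These matches are a description of the letters and not of binding.

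The levels below are log2 values normalized between arrays by the authors, so a difference of 1 is a doubling, and levels of different genes are not set against each other. The medians of the tested clusters ran from 4.64 to 4.70 over the 9 arrays. Of the factors, which also mark the labelled cell type, 9 of 10 lay above the array median in every line, and Prdm14 lay below it in 7 of 9 lines. In 3 lines labelled female, Y-linked signal was found. The Y-linked gene Eif2s3y had 5.19 in WM3, 3.72 in KAA2 and 4.78 in FB1, against 1.77 to 2.20 in the other 6 lines, so each group held 1 such line. Uty, also Y-linked, had 4.42 in WM3, 3.1 in KAA2 and 2.63 in FB1, against 1.77 to 2.11 in the others. Kdm5d, a further Y-linked gene, did not separate these lines, at 2.04, 1.96 and 2.04 in them and 2.03 to 2.46 in the others, and Xist ran from 2.53 in FB1 to 3.95 in FB2. The study's methods describe sexing by PCR for Sry, and the sex of these lines was not settled here. The limma differences, the spread and the pairs of factors are given without the 3 lines as well, while the rank product and the lists of genes were not run without them. X-linked clusters (351) stood 0.30 above autosomal ones in FB2 and 0.14 above in FB3, as median deviations from the mean of all lines, against -0.10 to -0.01 in the other 7 lines, and the part of X dosage in the levels of the factors was not tested. The feeder fibroblast list (24 genes measured) had a mean level of 5.07 to 5.22 in mESCWM, 4.98 to 5.10 in mESCKAA and 4.87 to 4.96 in mESCFB, and fewer cells of a type cannot be told apart from less RNA per cell in these bulk samples.

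**Figure D1:**
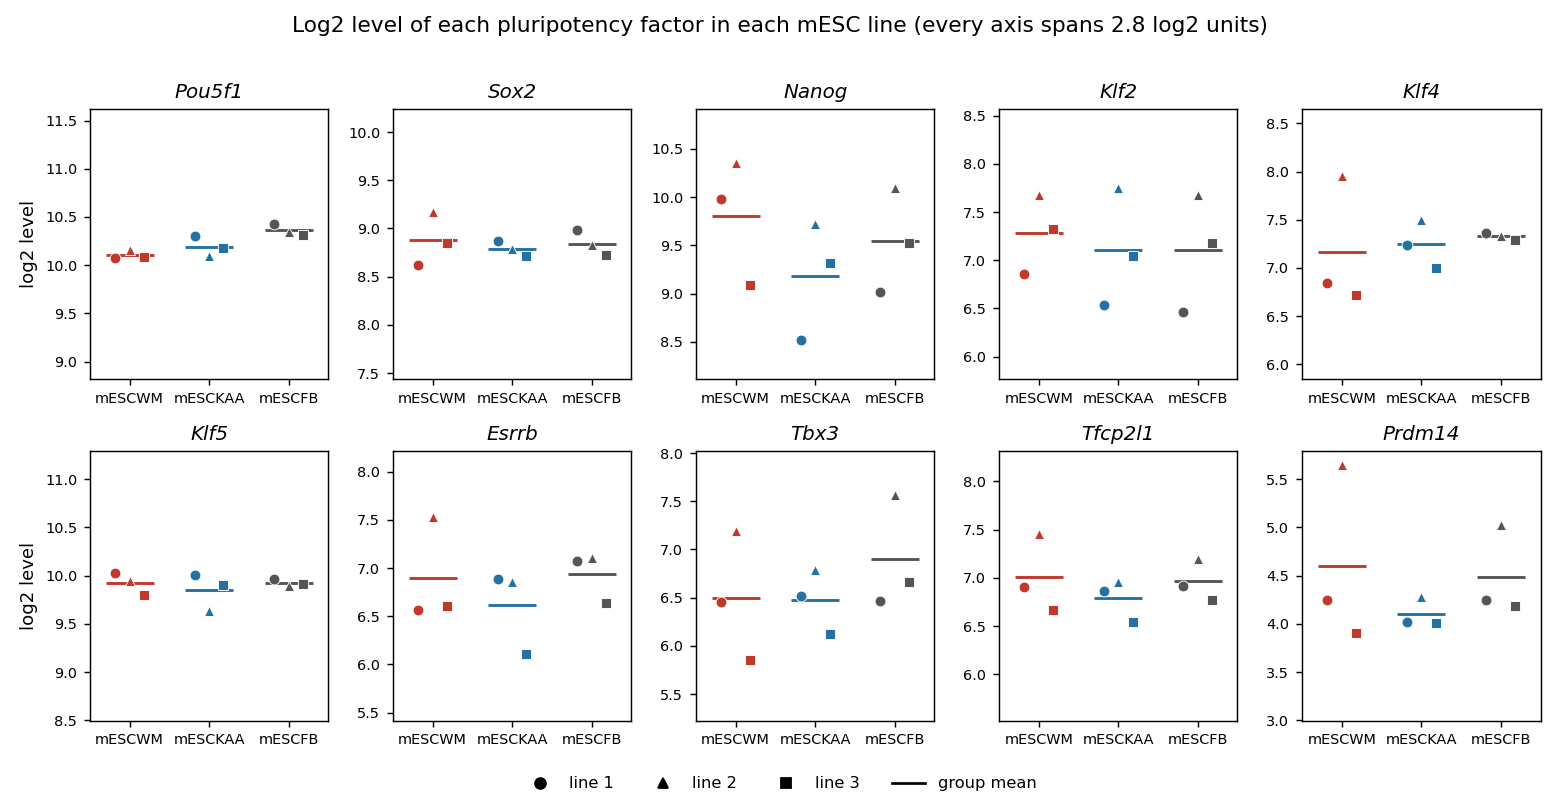
Log2 level of each of the 10 factors in each line, by group, with every vertical axis spanning the same range. Points are lines (circle, line 1; triangle, line 2; square, line 3) and bars are group means of 3 lines. Pou5f1 stays within 10.07 and 10.43, whereas Nanog runs from 8.52 to 10.35 with the 3 groups overlapping.

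Pou5f1, whose protein binds DNA together with SOX2, had the lowest spread of the 10 for its level over all 9 lines. Its level was 10.07, 10.16 and 10.08 in WM1, WM2 and WM3, 10.30, 10.10 and 10.18 in KAA1, KAA2 and KAA3 and 10.43, 10.34 and 10.31 in FB1, FB2 and FB3. All mESCWM and all mESCKAA lines lay below all mESCFB lines, and the mESCWM and mESCKAA lines overlapped. The means were 10.10 ± 0.05 in mESCWM, 10.19 ± 0.10 in mESCKAA and 10.36 ± 0.06 in mESCFB (SD, n = 3 each). The difference of mESCWM minus mESCFB was -0.26 (95% interval -0.43 to -0.08), with an unadjusted p = 0.00913 and an adjusted p = 0.819 by limma, and did not pass the threshold. The difference of mESCKAA minus mESCFB was -0.17 (-0.34 to 0.01, adjusted p = 0.918), and both share the mESCFB lines. Nanog and Pou5f1 have processed copies elsewhere in the mouse genome, and whether such copies add to these clusters was not tested.

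Sox2, the HMG-box partner of POU5F1, had 8.62, 9.17 and 8.85 in mESCWM, 8.87, 8.79 and 8.71 in mESCKAA and 8.98, 8.83 and 8.72 in mESCFB, in the order of the line numbers. WM2 was the highest and WM1 the lowest of all lines, so that both ends of the range lay in 1 group. Means were 8.88 ± 0.28, 8.79 ± 0.08 and 8.84 ± 0.13 in mESCWM, mESCKAA and mESCFB (SD, n = 3 each), and the differences between groups were within 0.09 on the log2 scale, with intervals from -0.37 to 0.41.

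Nanog, the homeobox factor that marks the gate to the naive state, spread more than any other factor relative to clusters of its level. It had 9.98, 10.35 and 9.09 in mESCWM, 8.52, 9.72 and 9.32 in mESCKAA and 9.02, 10.10 and 9.52 in mESCFB, again in the order of the line numbers. WM2 and FB2 were above 10 and KAA1 and FB1 lowest, and the groups overlapped. Means were 9.81 ± 0.65 in mESCWM, 9.19 ± 0.61 in mESCKAA and 9.55 ± 0.54 in mESCFB (SD, n = 3 each). The difference of mESCWM minus mESCKAA, 0.62, was the largest among the 30 differences of the 10 factors, yet its interval ran from -0.32 to 1.57 (limma adjusted p = 0.807). With single lines left out it ran from 0.29 without KAA1 to 0.98 without WM3, and without WM3, KAA2 and FB1 together it was 1.25, with -0.89 in mESCKAA minus mESCFB (limma adjusted p = 0.549 and 0.916). Between the highest and the lowest line lay a factor of 3.57.

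The 3 Kruppel-like factors can stand in for each other in ESCs. Klf2, whose protein is kept stable when MEK is inhibited, had 6.86, 7.68 and 7.32 in mESCWM, 6.54, 7.75 and 7.04 in mESCKAA and 6.46, 7.68 and 7.18 in mESCFB. In each group the line numbered 1 was lowest and that numbered 2 highest, and the groups covered nearly the same range. The means, 7.29 ± 0.41, 7.11 ± 0.61 and 7.11 ± 0.61 in mESCWM, mESCKAA and mESCFB (SD, n = 3 each), left a difference of 0.002 for mESCKAA minus mESCFB with an interval of -0.86 to 0.87.

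Klf4, a target of STAT3, had 6.84, 7.95 and 6.72 in mESCWM, 7.24, 7.50 and 7.00 in mESCKAA and 7.36, 7.33 and 7.29 in mESCFB. The mESCFB lines lay within 0.04 of their mean, while WM2 alone stood 0.78 above the mean of its group. Group means were 7.17 ± 0.68, 7.25 ± 0.25 and 7.32 ± 0.04 (SD, n = 3 each, in the same order) and differed by at most 0.15. Klf5, which acts in both the inner cell mass and the trophectoderm, had 10.03, 9.94 and 9.80 in mESCWM, 10.01, 9.63 and 9.90 in mESCKAA and 9.96, 9.89 and 9.91 in mESCFB. KAA2 was the lowest line, at -0.22 from its group mean. The Klf5 means were 9.92 ± 0.12 in mESCWM, 9.85 ± 0.20 in mESCKAA and 9.92 ± 0.04 in mESCFB (SD, n = 3 each).

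Esrrb, the orphan nuclear receptor that can replace NANOG in reprogramming, had 6.56, 7.53 and 6.61 in mESCWM, 6.89, 6.85 and 6.11 in mESCKAA and 7.07, 7.10 and 6.64 in mESCFB. WM2 was the highest and KAA3 the lowest line. Tfcp2l1, a CP2-family factor common to the LIF and GSK3 arms, had 6.91, 7.45 and 6.67 in mESCWM, 6.86, 6.96 and 6.54 in mESCKAA and 6.92, 7.20 and 6.77 in mESCFB, with the same highest and lowest lines as Esrrb. Means of Esrrb were 6.90 ± 0.55, 6.62 ± 0.44 and 6.93 ± 0.26 and those of Tfcp2l1 7.01 ± 0.40, 6.79 ± 0.22 and 6.96 ± 0.22 in mESCWM, mESCKAA and mESCFB (SD, n = 3 each). The lowest mean was that of mESCKAA for both, at -0.32 (interval -1.0 to 0.36) and -0.18 (interval -0.65 to 0.30) relative to mESCFB, differences that the intervals do not tell from 0. Without KAA3 they were -0.07 and -0.05.

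Tbx3, the T-box factor tied to PI3K signaling in ESCs, had 6.46, 7.19 and 5.85 in mESCWM, 6.52, 6.79 and 6.12 in mESCKAA and 6.47, 7.57 and 6.66 in mESCFB. FB2 was highest, WM3 lowest, and the groups overlapped. The means were 6.50 ± 0.68, 6.48 ± 0.34 and 6.90 ± 0.59 in mESCWM, mESCKAA and mESCFB (SD, n = 3 each). Prdm14, a PR-domain factor that represses DNA methyltransferases and FGF receptors in ESCs, had 4.25, 5.65 and 3.90 in mESCWM, 4.02, 4.28 and 4.01 in mESCKAA and 4.25, 5.03 and 4.18 in mESCFB. WM2 and FB2 were the only lines above the array median, and the other 7 lay within 3.90 and 4.28. Its means were 4.60 ± 0.92 in mESCWM, 4.10 ± 0.15 in mESCKAA and 4.49 ± 0.47 in mESCFB (SD, n = 3 each).

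No factor differed between groups by limma at an adjusted p under 0.05 (two-sided, Benjamini-Hochberg over the 23410 clusters), where 0 clusters in all passed in each of the 3 comparisons (percent called 0). For mESCWM minus mESCFB, 6 factors lay above 0 and 4 below, with a median of 0.02 against 0.01 for all tested clusters. At an unadjusted p under 0.05 stood 1 of 10 factors, Pou5f1, where 5.89% of all clusters (1380) did. For mESCKAA minus mESCFB, 1 factor lay above 0 and 9 below, with a median of -0.17 against 0.01 for all clusters, and 0 of 10 had an unadjusted p under 0.05 where 4.81% of all clusters (1126) did. For mESCWM minus mESCKAA, 8 lay above 0 and 2 below, with a median of 0.13 against -0.01, and again 0 of 10 had an unadjusted p under 0.05 beside 6.29% of all clusters (1473). The comparisons share lines, so these counts are not independent of each other.

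Groups that did not overlap were about as frequent among the factors as elsewhere on the array. Of the 10 factors, 1 did not overlap in mESCWM against mESCFB and 1 in mESCKAA against mESCFB, Pou5f1 in both, beside 8.13% and 8.08% of all tested clusters, and none did in mESCWM against mESCKAA, beside 8.66%. An exact permutation test of 3 lines against 3 cannot go below p = 0.1. The rank product, the test that the study names, was run anew, so the counts are not the study's own. The threshold was a percentage of false positives (pfp) under 0.05. In the 3 comparisons the test called 29, 29 and 70 clusters (0.124%, 0.124% and 0.299% of those tested) and no factor. The closest was Nanog in mESCWM minus mESCKAA, at a pfp of 0.230.

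**Figure D2:**
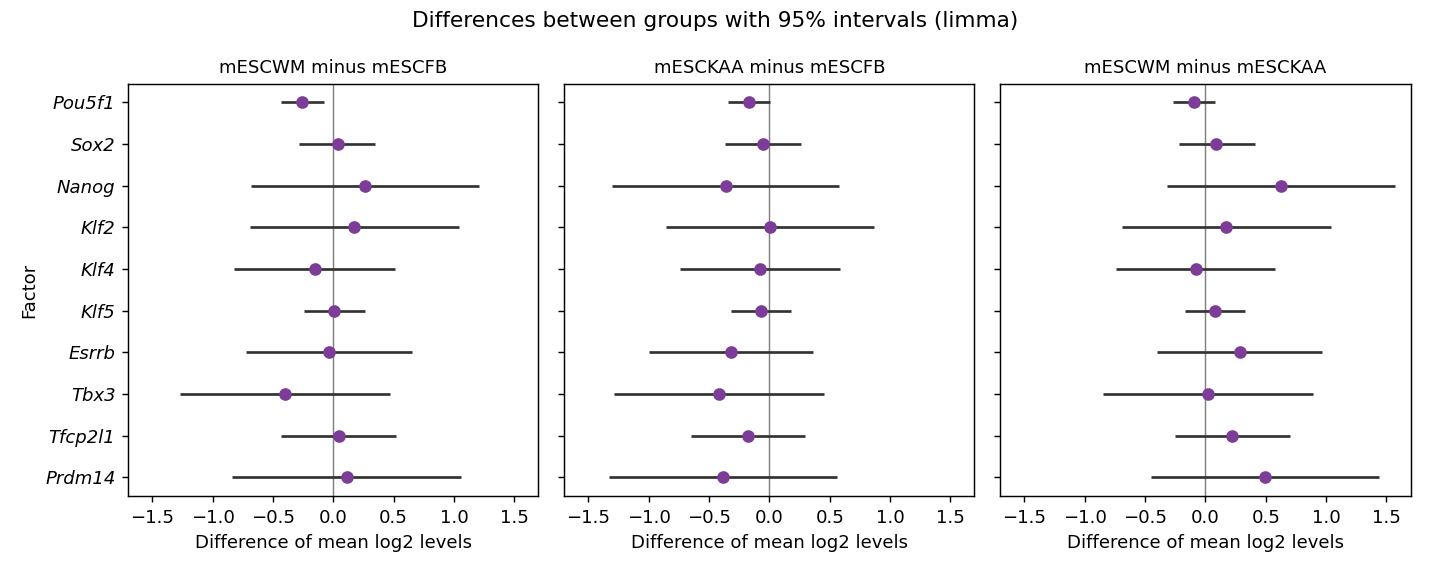
Differences between groups in mean log2 level for each factor, with the 95% intervals of limma, for mESCWM minus mESCFB (left), mESCKAA minus mESCFB (middle) and mESCWM minus mESCKAA (right). Of the 30 intervals, 1 lies off 0, that of Pou5f1 in mESCWM minus mESCFB (-0.43 to -0.08), and those of Nanog, Klf2, Tbx3 and Prdm14 are the widest.

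The factors separated by how far the lines of a group lay from each other. The spread was taken as the SD around the 3 group means, and set against the tested clusters nearest in level (the 500 below and the 500 above it in rank), since array values scatter differently at different levels. A factor was called steady below the 50th percentile of these clusters and variable from the 90th. By this description 1 factor was steady, 3 lay between and 6 were variable.

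Pou5f1 was the steady one, with an SD of 0.073 at percentile 29.1. Klf5 (0.135, percentile 65.6), Sox2 (0.184, percentile 73.8) and Tfcp2l1 (0.293, percentile 86.1) lay between, Tfcp2l1 being the nearest to the boundary from below. The variable factors began with Klf4 (0.418, percentile 96.3) and Esrrb (0.431, percentile 96.9). Klf2 had an SD of 0.551 (percentile 98.5), Tbx3 0.553 (98.6), Prdm14 0.605 (98.8) and Nanog 0.602 (99.5). Relative to the median SD of clusters of the same level, Nanog spread 5.04 times as far, Prdm14 3.43 times and Klf2 3.25 times, against 0.75 times for Pou5f1.

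The share of a factor's variance that lay within groups is set beside 75%, the share that the degrees of freedom give where groups do not differ. It was 23.5% for Pou5f1, 78.8% for Nanog and between 84.4% and 96.8% for the other 8. From the lowest to the highest of the 9 lines the fold was 3.36 for Prdm14, 3.30 for Tbx3, 2.67 for Esrrb, 2.44 for Klf2 and 2.35 for Klf4, against 1.28 for Pou5f1, 1.32 for Klf5 and 1.47 for Sox2. WM2 carried part of this: without it, Klf4 was at percentile 48.3 (SD 0.162), Sox2 at 45.7 (SD 0.123) and Esrrb at 88.3 (SD 0.321), with Prdm14 just inside the boundary at 90.4 (SD 0.331), which left Nanog, Klf2, Tbx3 and Prdm14 as variable. Without WM3, KAA2 and FB1, the lines with Y-linked signal, the same 6 factors were variable. Klf5 (percentile 24.6, SD 0.058) then stood below Pou5f1 (percentile 31.3, SD 0.060), both of them steady. With the line number fitted as well (a replicate block), only Nanog, Klf4, Esrrb and Prdm14 stayed variable. Klf2 then stood at percentile 39.8 (SD 0.130), Tbx3 at 85.3 (SD 0.279) and Tfcp2l1 at 34.2 (SD 0.127).

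**Figure D3:**
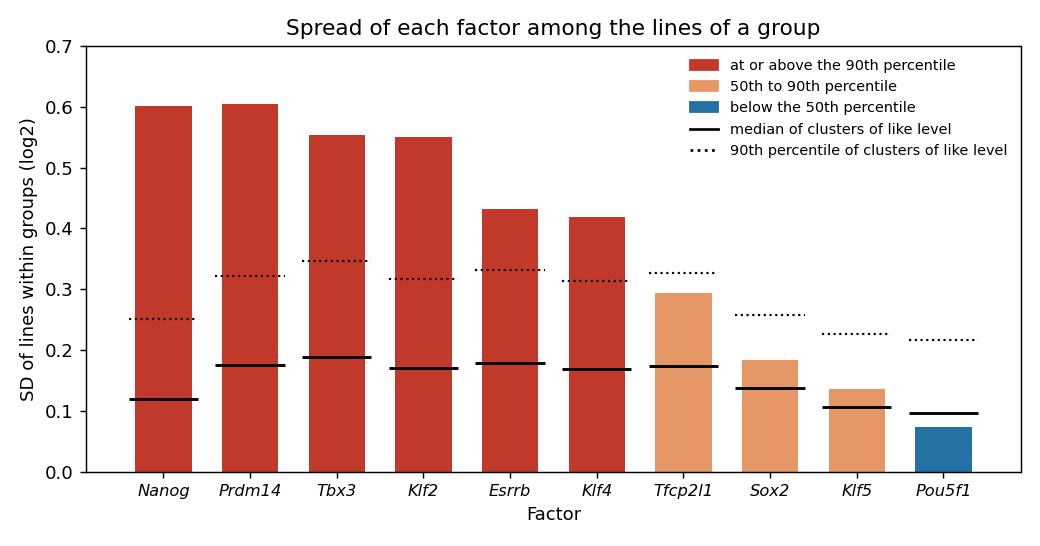
SD of the log2 levels of lines around their group means for each factor, ordered by percentile. Solid bars across mark the median and dotted ones the 90th percentile of the clusters of nearest level. Nanog (0.602) to Klf4 (0.418) exceed the dotted marks, and Pou5f1 (0.073) lies under its solid mark.

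The highest lines of a group were much the same for several factors. WM2 was the highest of all 9 lines for 6 factors and the highest of its group for 9, all but Klf5. FB2 and KAA2 were each the highest of their group for 6. WM3, KAA3 and FB3 were highest in their group for none and each lowest for 6. How often each line is highest or lowest over all tested clusters was not counted. The array median was itself highest in WM2, at 4.70. Relative to its group mean, Prdm14 stood at 1.05 in WM2, 0.54 in FB2 and -0.70 in WM3. Tbx3 stood at 0.69 in WM2, 0.67 in FB2 and -0.66 in WM3. Nanog stood at 0.54 in WM2, 0.54 in KAA2 and 0.55 in FB2, and was low in WM3 (-0.72), KAA1 (-0.67) and FB1 (-0.53). Thus the line numbered 2 was above its group mean for Nanog, Klf2, Tbx3, Esrrb, Tfcp2l1 and Prdm14 in all 3 groups, and for Klf4 as well, though by 0.004 in FB2.

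**Figure D4:**
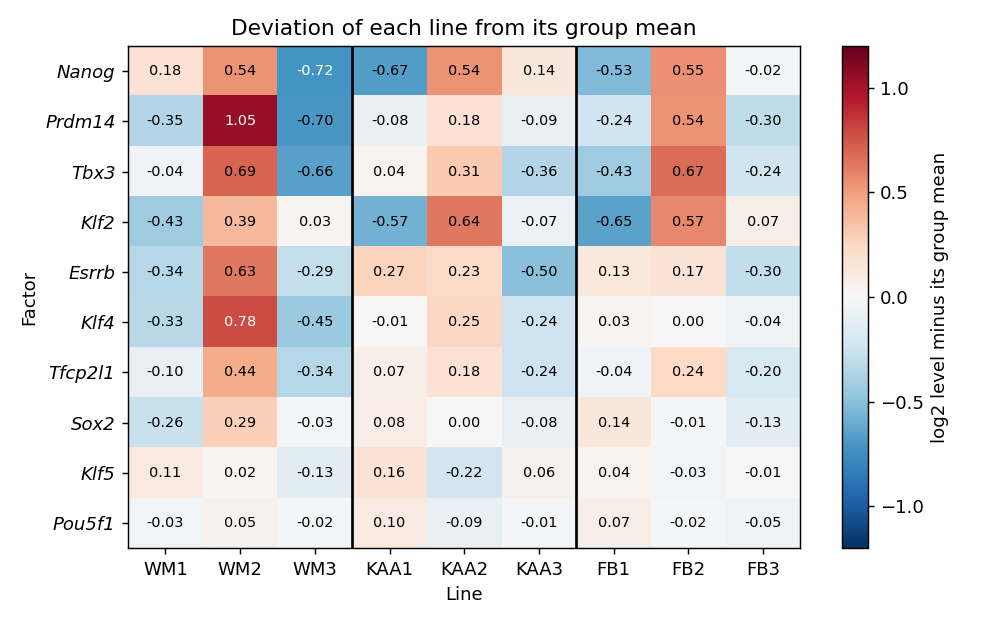
Deviation of each line from the mean of its group for each factor, in log2 units, with factors ordered by the percentile of their spread. WM2 is above its group mean for all 10 factors, by 1.05 for Prdm14 and 0.02 for Klf5, and the largest deviation of Pou5f1 is 0.10, in KAA1.

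Over the 9 lines, 45 pairs of factors were correlated, with exact permutation of the lines and adjustment over the 45. Of these, 40 were positive by Pearson's r, with a median of 0.39, and by Spearman's rho 37 were positive, with a median of 0.40. Tfcp2l1 and Prdm14 had r = 0.93 (exact permutation p = 0.000397, adjusted p = 0.0179) and rho = 0.95 (exact permutation p = 0.000353, adjusted p = 0.0159). Without KAA3 and WM2, the 2 lines farthest from the median of Tfcp2l1, r was 0.93, and on deviations from the group means it was 0.92. Esrrb and Tfcp2l1 had r = 0.91 (exact permutation p = 0.000832, adjusted p = 0.0187) and rho = 0.83 (exact permutation p = 0.00827, adjusted p = 0.0705). Without KAA3 and WM2 this r was 0.71, and on deviations from group means 0.91. The permutation treats the 9 lines as exchangeable and takes no account of deviations shared by same-numbered lines, which group means do not remove. Fitting the line number as well took the SD of Tfcp2l1 from 0.293 to 0.127.

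Both calls depended on single lines. Without WM2, r was 0.86 for Tfcp2l1 and Prdm14 (exact permutation, adjusted p = 0.0804) and 0.84 for Esrrb and Tfcp2l1 (adjusted p = 0.135), and 0 pairs passed. Without WM3, r was 0.93 (exact permutation, adjusted p = 0.0558) and 0.92 (adjusted p = 0.0764), and 0 pairs passed either. Esrrb and Tfcp2l1 also missed the threshold without KAA3 (r = 0.89, exact permutation, adjusted p = 0.0640) and without FB3 (r = 0.91, adjusted p = 0.0664). Without WM3, KAA2 and FB1 together, r was 0.94 for Tfcp2l1 and Prdm14 and 0.95 for Esrrb and Tfcp2l1 over 6 lines (exact permutation, adjusted p = 0.146 for each).

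At an unadjusted exact p under 0.05 stood 16 pairs by Pearson's r and 12 by Spearman's rho. Nanog and Prdm14 had r = 0.77 (exact permutation p = 0.00845, adjusted p = 0.0543), and Tbx3 and Tfcp2l1 r = 0.85 (exact permutation p = 0.00492, adjusted p = 0.0543). Nanog and Klf2 had r = 0.72 (exact permutation p = 0.0324, adjusted p = 0.110), falling to 0.51 without KAA1 and WM2. Pou5f1 had no r beyond -0.41 and 0.35 with any other factor over the lines, while on deviations from the group means its r was 0.70 with Klf5, 0.63 with Sox2 and -0.61 with Klf2. The lowest r was that of Klf2 and Klf5, with r = -0.65 (exact permutation p = 0.0496, adjusted p = 0.139).

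**Figure D5:**
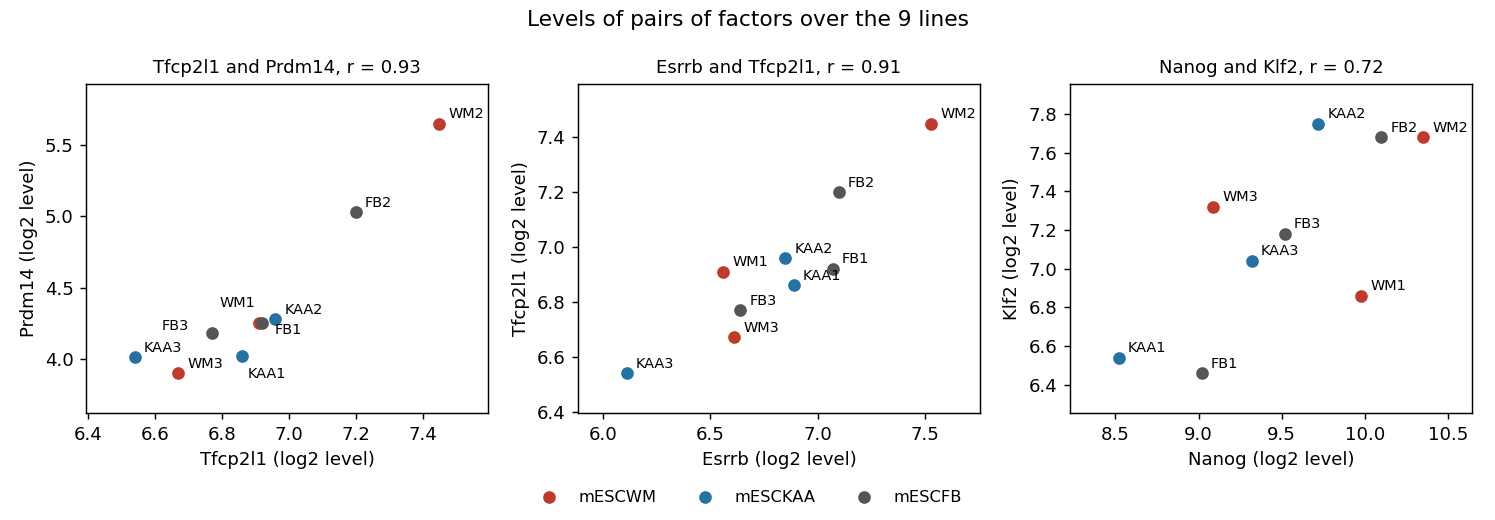
Log2 levels of Tfcp2l1 and Prdm14 (left, r = 0.93), Esrrb and Tfcp2l1 (middle, r = 0.91) and Nanog and Klf2 (right, r = 0.72) in the 9 lines, with each point labelled by its line and coloured by group. WM2 lies at the upper end of the first pair and KAA1 and FB1 at the lower end of the last, and no group occupies a corner of its own.

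For each of the 6 variable factors, the 3 genes with the highest Pearson's r over the lines were named, from clusters with a single symbol, and these values are given as a measure of likeness, chosen as the highest of 21779 (the factors left out). For Prdm14 they were Zbtb44 (r = 0.974), Olfr427 (0.971) and Proca1 (0.970), for Nanog Rnf43 (0.944), Irf9 (0.935) and Gstm3 (0.932), and for Klf2 Rasgrp1 (0.940), Rph3a (0.940) and Gm13570 (0.933). For Klf4 they were 1700003F12Rik (0.967), Atp2c2 (0.953) and Hspa12b (0.947), for Esrrb Fcsk (0.931), Slc25a11 (0.929) and Vmn1r219 (0.928), and for Tbx3 Chchd5 (0.956), Saal1 (0.948) and Dynll2 (0.946). Between 0.0384% and 0.201% of all 23409 other tested clusters reached r of 0.9 with these factors. Some of these, such as Olfr427 (1.94 to 2.13 over the lines) and Vmn1r219 (1.57 to 1.93), lay far under the array median. Zbtb44 had 7.40, 7.96 and 7.05 in mESCWM, 7.12, 7.31 and 7.23 in mESCKAA and 7.36, 7.80 and 7.27 in mESCFB, high in the same lines as Prdm14. Rnf43, an E3 ligase that removes Wnt receptors, had 3.75, 3.77 and 3.50 in mESCWM, 3.24, 3.62 and 3.62 in mESCKAA and 3.33, 3.76 and 3.62 in mESCFB, a far smaller range than Nanog.

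Genes that act on the factors were counted next, from lists of the signals that feed the network. None of the members of the 13 lists passed limma's adjusted threshold in any comparison. Of the LIF and STAT3 pathway all 12 genes were measured, with medians of 0.05 in mESCWM minus mESCFB and 0.01 in mESCKAA minus mESCFB. Jak2, a kinase of the LIF receptor, differed by 0.47 in mESCWM minus mESCFB (limma adjusted p = 0.819). It lay under the array median in every line (3.26 in FB2 to 4.33 in WM1). Jak1 differed by 0.32 in mESCWM minus mESCKAA (limma adjusted p = 0.771). Cish, a feedback inhibitor of cytokine signaling, differed by -0.35 in mESCWM minus mESCFB (limma adjusted p = 0.823).

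The GSK3, beta-catenin and TCF list (11 of 12 measured) had medians of 0.11, 0.08 and 0.03 in the same 2 comparisons and in mESCWM minus mESCKAA. Gsk3a, one of the kinases that CHIR99021 inhibits, differed by 0.17 in mESCWM minus mESCFB (limma adjusted p = 0.819), and Gsk3b, the other, by 0.28 in mESCWM minus mESCKAA (0.771). Lef1, the TCF-family factor induced as cells leave the naive state, had 5.90, 6.12 and 6.68 in mESCWM, 7.17, 6.64 and 6.68 in mESCKAA and 7.17, 6.29 and 6.48 in mESCFB, highest in KAA1 and FB1, the lines lowest in Nanog.

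The FGF4 and ERK list (17 of 20 measured) had a median of -0.20 in mESCWM minus mESCFB, -0.03 in mESCKAA minus mESCFB and -0.02 in mESCWM minus mESCKAA, with 3, 1 and 3 of 17 genes lower and 0 higher at an unadjusted limma p under 0.05, beside 5.89%, 4.81% and 6.29% of all tested clusters in either direction. Spry4, a feedback inhibitor of receptor kinase signaling, had 6.98, 7.28 and 7.57 in mESCWM, 8.61, 8.35 and 8.48 in mESCKAA and 8.55, 8.39 and 8.55 in mESCFB. All mESCWM lines lay below all others, with a difference of -1.22 in mESCWM minus mESCFB (SE 0.14, limma unadjusted p = 1.9e-05, adjusted p = 0.445). Dusp6, the ERK phosphatase, differed by -0.70 in mESCWM minus mESCFB (limma adjusted p = 0.819), and the X-linked gene Klhl13 by -0.86 in mESCKAA minus mESCFB (limma adjusted p = 0.918). Klhl13 had 8.93 in FB1, as in each mESCWM line, but 9.93 in FB2 and 9.61 in FB3. In FB2 and FB3 the X-linked clusters also stood above the autosomal ones, and the part of X dosage was not tested.

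Among genes that the core factors activate, 23 of 24 were measured, with medians of -0.08 in mESCWM minus mESCFB, -0.14 in mESCKAA minus mESCFB and 0.12 in mESCWM minus mESCKAA. Tdgf1, a Nodal co-receptor, differed by -0.27 in mESCWM minus mESCFB (limma adjusted p = 0.733), Gdf3 by -0.42 (0.819), and Fbxo15, a direct target of POU5F1 and SOX2, by 0.75 in mESCWM minus mESCKAA (0.771). The co-regulators of the core factors (18 of 20 measured) had medians of -0.10, -0.09 and -0.004 in the 3 comparisons, with Wdr5 at -0.26 in mESCWM minus mESCFB (adjusted p = 0.819), Kdm1a at 0.30 in mESCWM minus mESCKAA (0.771) and Rest at -0.34 in mESCKAA minus mESCFB (0.918). Of 29 measured relatives of the factors (30 listed), the medians were -0.02, -0.01 and 0.01, and the smallest unadjusted p were those of Ubp1, Esrrg and Klf13, at -0.21 and -0.20 in mESCWM minus mESCKAA and 0.24 in mESCWM minus mESCFB.

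Over the lines, 6 of the 23 measured targets had WM2 and FB2 as their 2 highest lines. The share of all tested clusters with this order was not counted, so the count is not read as particular to the targets. Pearson's r with Nanog was above 0 for 12 targets and below 0 for 11, the lower ones including Gdf3 (-0.69), Gbx2 (-0.69) and Utf1 (-0.62). Of the 6, Jam2 and Tcl1 are given as examples chosen after their values were seen. Jam2, an adhesion molecule, had 6.83, 8.48 and 6.34 in mESCWM, 5.79, 6.92 and 6.73 in mESCKAA and 6.30, 8.12 and 7.11 in mESCFB. Tcl1, a co-activator of AKT downstream of POU5F1, had 5.07, 6.46 and 5.12 in mESCWM, 4.74, 5.25 and 4.42 in mESCKAA and 4.71, 6.76 and 5.33 in mESCFB. Both were highest in WM2 and FB2, the lines highest in Nanog and Prdm14. Nr5a2, a nuclear receptor that binds the Pou5f1 gene, comes from the list of co-regulators and was also chosen after its values were seen. It had 5.24, 6.28 and 5.24 in mESCWM, 5.64, 5.81 and 5.64 in mESCKAA and 5.75, 6.25 and 5.61 in mESCFB, with the same 2 lines on top.

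Genes that PRDM14 represses (5 of 5 measured) had medians of -0.28, -0.05 and -0.19 in the 3 comparisons. Dnmt3l differed by -0.73 in mESCWM minus mESCFB (limma adjusted p = 0.819), Fgfr1 by 0.26 in mESCWM minus mESCKAA (0.786) and Fgfr2 by -0.23 in mESCKAA minus mESCFB (0.918). Dnmt3b, the de novo methyltransferase and a further gene chosen after its values were seen, had 8.09, 7.18 and 8.22 in mESCWM, 8.41, 7.82 and 8.11 in mESCKAA and 8.44, 7.83 and 8.15 in mESCFB. It was lowest in WM2, the line highest in Prdm14, and highest in KAA1 and FB1. It was the only one of the 5 with its lowest level in WM2: Dnmt3a and Dnmt3l were lowest in WM1, Fgfr1 in KAA1 and FB3 (6.41 in both), and Fgfr2 was lowest in KAA2 (4.45) and highest in FB2 (5.07).

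Markers of other states moved with single lines as well. The primitive endoderm list (14 of 14 measured, 11 with a mean above the array median) had a mean level of 6.53 in KAA1 and 6.23 in FB1, against 5.27 to 5.51 in the other 7 lines. Lama1, a basement membrane laminin, and Gata6 are given as examples chosen after their values were seen. Lama1 had 4.48, 5.07 and 5.03 in mESCWM, 7.32, 4.86 and 4.90 in mESCKAA and 6.95, 4.94 and 4.43 in mESCFB. Gata6, the factor that opposes NANOG in the blastocyst, had 4.87, 5.62 and 5.48 in mESCWM, 7.01, 5.73 and 5.48 in mESCKAA and 6.34, 5.29 and 4.81 in mESCFB. KAA1 and FB1 were thus the 2 lines with the highest endoderm markers and the lowest Nanog (8.52 and 9.02) and Klf2 (6.54 and 6.46), while their Pou5f1 was the highest of their groups (10.30 and 10.43), and the part of such cells in the Nanog and Klf2 values was not tested. By the rule for named genes, Pdgfra differed by -0.46 and Sox17 by -0.43 in mESCWM minus mESCKAA, and Sox7 by -0.65 in mESCWM minus mESCFB (limma adjusted p = 0.771, 0.798 and 0.819).

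The formative and primed epiblast list (13 of 13 measured, all above the array median) had a mean level of 6.17, 5.99 and 6.36 in mESCWM, 6.50, 6.13 and 6.21 in mESCKAA and 6.49, 6.25 and 6.28 in mESCFB, lowest in WM2 and highest in KAA1 and FB1. Of its 13 genes, 4 had their own lowest level in WM2, a count without the share over all tested clusters beside it. Otx2 differed by -0.79 in mESCWM minus mESCFB, Zic2 by 0.78 in mESCWM minus mESCKAA and Sox4 by 0.34 in mESCWM minus mESCFB (limma adjusted p = 0.819, 0.752 and 0.819). The list of the 2-cell-like state (8 of 13 measured, 1 above the array median) stood at 4.32 in WM2 and 5.24 in FB2, the lines highest in Prdm14, against 3.29 to 3.74 in the other 7. Zscan4c, Zscan4d, Zscan4f, Tcstv1 and Tdpoz4 had no cluster with their symbol alone and were left out, though the study reports Zscan4d from these arrays. Of its 8 measured genes, 4 had WM2 and FB2 as their 2 highest lines, again without the share over all tested clusters. Gm5662 differed by 2.02 in mESCWM minus mESCKAA, and Tcstv3 and Zfp352 by -0.97 and -0.57 in mESCKAA minus mESCFB (limma adjusted p = 0.771, 0.918 and 0.918).

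The trophectoderm list (12 of 12 measured, 10 above the array median) ranged from 6.43 to 6.82 in mESCWM, 6.64 to 7.02 in mESCKAA and 6.59 to 6.87 in mESCFB, lowest in WM2. Of its 12 genes, 6 had their own lowest level in WM2, and how many of all tested clusters did was not counted. Tfap2a, Eomes and Cdx2 differed by -0.25, -0.30 and -0.53 in mESCWM minus mESCKAA (limma adjusted p = 0.771, 0.771 and 0.772). Of the feeder fibroblast genes, 14 of 24 lay above the array median, and 4 were higher in mESCWM than in mESCFB at an unadjusted limma p under 0.05, beside 5.89% of all tested clusters in either direction. Acta2 differed by 1.10, Bgn by 0.90 and Vim by 0.57 in mESCWM minus mESCFB (limma adjusted p = 0.685, 0.808 and 0.808). The part of feeder cells in the differences of the factors was not tested.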

How the data were processed

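Transcript levels of 9 mESC lines, 3 per group, were taken from the deposited value table. The deposited values are log2 levels (0.56 to 13.3), which the authors made by RMA in affylmGUI, that is, by background correction, normalization between arrays and summary of the probes. The submitters' processing notes list R 3.1.0 and Affymetrix Expression Console. A genome build is not given in the sources used here. All columns were mapped to lines by their titles (0 not mapped). Gene names come from the platform annotation. Clusters without a gene (12146) were left out, which left 23410. The number of arrays limits the precision.

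For the differences, limma 3.58.1 (R 4.3.3) was fitted over all 9 lines with lmFit and eBayes, 1 mean per group and Benjamini-Hochberg adjustment. The rank product (Python 3.11.15, numpy 2.4.6) used 9 pairwise differences and 100 permutations, and the threshold of 0.05 was chosen here. Exact permutations of 9 lines ran over 362880 orders (scipy 1.17.1, pandas 2.3.3), and plots used matplotlib 3.10.9. Each step was tested on simulated data. The tested alternatives were other normalizations, filters, fits, thresholds, a replicate block and leaving out lines.

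The factors and the lists of genes were chosen with earlier results of these data known. Named are all 10 factors, the 3 genes most like each variable factor, up to 3 members of each other list with the smallest limma p over the comparisons, and the genes of the check of sex. Jam2, Tcl1, Nr5a2, Dnmt3b, Lama1 and Gata6, and the genes given beside them for contrast (Gbx2, Utf1 and Dnmt3a), were named after their values were seen. For lists, each gene was represented by its cluster of the highest mean level among those with that symbol alone. Genes without such a cluster count as not measured, whether or not the array holds probes for them. Lines of a group are separate derivations, and p-values measure the spread between lines. Outside the fit with a replicate block, that spread includes deviations shared by same-numbered lines. Correlations of pairs of factors with the line number removed were not computed.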

Additional observations from a re-analysis of the deposited data

How the results depend on the processing

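No factor passed limma's or the rank product's threshold under any alternative run, and 11 of the 30 differences kept their sign under all 17 alternatives (16 for Prdm14, which the filter on level removed), with a lowest adjusted p of 0.546. Over all clusters limma called 0 in every comparison (unadjusted 1380, 1126 and 1473), but 1 in mESCWM minus mESCFB and 1 in mESCWM minus mESCKAA without WM3 (leave-one-out ranges 0 to 1, 0 to 0 and 0 to 1). The rank product called 57, 76 and 113 at a percentage of false positives under 0.1, and 7 to 50, 3 to 77 and 28 to 65 with single lines left out. Without FB2 or FB3 it called 4 and 3 in mESCKAA minus mESCFB, and 50 and 7 in mESCWM minus mESCFB.

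The replicate numbers were not taken to pair the lines, by a cut of 0.1 asked of every correlation, which 5 of 9 exceeded. Deviations of same-numbered lines correlated from -0.01 (WM1 and KAA1) to 0.33 (KAA1 and FB1). Yet 8 of 9 correlated best with their own number among the lines compared. The cut does not settle whether same-numbered lines share a source of variation. With a replicate block limma called 0 in each comparison (unadjusted 1714, 1443 and 1876). The block left 4 variable factors (Nanog, Klf4, Esrrb and Prdm14), with Klf2 at percentile 39.8, Tfcp2l1 at 34.2 (Pou5f1 at 38.2) and Tbx3 at 85.3. With single lines left out, 4 (without WM2) to 7 (without WM1 or FB1, when Tfcp2l1 joined) factors were variable. Pairs called numbered 4 after quantile normalization and 0 to 4 with single lines left out, 0 without WM2 or WM3, 1 without KAA3 or FB3 and 4 without FB2.

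Signs turned only in differences whose interval held 0, which was so for all but Pou5f1 in mESCWM minus mESCFB. Quantile normalization gave -0.007 for Tbx3 in mESCWM minus mESCKAA, and median centring gave -0.010 for Klf5 in mESCWM minus mESCFB and -0.013 for Klf2 in mESCKAA minus mESCFB. With single lines left out, mESCWM minus mESCFB ran from -0.11 to 0.17 for Sox2, -0.01 to 0.62 for Nanog, -0.15 to 0.46 for Klf2, -0.54 to 0.071 for Klf4, -0.047 to 0.069 for Klf5, -0.35 to 0.14 for Esrrb, -0.17 to 0.22 for Tfcp2l1 and -0.41 to 0.46 for Prdm14. For mESCKAA minus mESCFB it ran from -0.12 to 0.016 for Sox2, -0.32 to 0.29 for Klf2, -0.20 to 0.047 for Klf4 and -0.15 to 0.038 for Klf5. For mESCWM minus mESCKAA it ran from -0.054 to 0.22 for Sox2, -0.11 to 0.49 for Klf2, -0.47 to 0.15 for Klf4, -0.032 to 0.16 for Klf5, -0.033 to 0.45 for Esrrb, -0.32 to 0.35 for Tbx3 and -0.027 to 0.85 for Prdm14. Pou5f1 kept its sign, at -0.29 to -0.22 in mESCWM minus mESCFB and -0.22 to -0.12 in mESCKAA minus mESCFB.

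An alternative chosen after seeing the data left out WM3, KAA2 and FB1 together. It called 0 clusters in each comparison (unadjusted 2136, 1237 and 1759) and 0 pairs over 6 lines, and kept 6 variable factors. Differences with a turned sign were -0.16 for Klf2, 0.088 for Klf4 and 0.17 for Esrrb in mESCWM minus mESCFB, 0.017 for Sox2, -0.64 for Klf2 and 0.057 for Klf5 in mESCKAA minus mESCFB, and 0.27 for Klf4 in mESCWM minus mESCKAA. The cause was not tested.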
